A study of Mus musculus with 26 samples.

Results

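Sequencing counts of whole mouse testis were used to set the effect of an Nkapl knockout against the effect of a Sox30 knockout, gene by gene. The comparison rests on 10 of the 23 distinct libraries in the series, chosen by the sample that each column heading names, with a library held by several files used once. They are 2 Nkapl knockout and 3 Nkapl-set wild-type libraries, and 2 Sox30 knockout and 3 Sox30-set wild-type libraries. All are testes of C57BL/6 mice at postnatal day 21, each knockout set has wild-type mice of its own, and the labels name no other allele or agent. How each gene was disrupted, and whether knockout and wild-type mice were littermates, is not in the labels. The design text speaks of biological triplicates, and the p-values below rest on the spread between these libraries, pooled over both sets. Sorted pachytene spermatocytes and round spermatids of wild-type and Nkapl knockout mice, also labelled day 21, with 2 libraries per group, are used only to describe the genes.

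Nkapl is an intronless gene expressed in germ cells and related to the nuclear protein gene Nkap, which acts in transcription and RNA processing. Sox30 encodes a transcription factor of the SOX family, whose HMG domain binds DNA, and it is known from mouse testis as a regulator of genes that switch on in late meiosis and in round spermatids. At this age the first wave of spermatogenesis has reached early round spermatids, so the tissue holds spermatogonia, spermatocytes, young spermatids and somatic cells. In whole tissue, fewer cells of a type and less RNA per cell cannot be told apart.

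Heading and file record name different samples in 15 of the 18 testis files of the series. Within these 10 libraries, Nkapl wild type 3 and Sox30 wild type 3 are named wild type by their headings and knockout by their records. The Nkapl-set libraries held 20120729 to 25514132 counts each and the Sox30-set libraries 34167576 to 40010106. The fitted biological coefficient of variation between libraries of a group was 3.71% in the Nkapl set, 16.9% in the Sox30 set and 12.1% in the joint fit, so the 2 effects were measured with unequal precision. The SE and p-values below come from the joint fit and do not show this inequality. Its spread is above that of the Nkapl set alone and below that of the Sox30 set alone. The ribosomal RNA transcript Rn45s took 5.29% to 5.53% of counts in Nkapl knockouts and 3.96% to 3.97% in their wild types, and 3.22% to 3.51% in Sox30 knockouts and 2.78% to 3.5% in theirs. Nkapl had 61.4 and 58.8 CPM (counts scaled to library size) in Nkapl knockouts, against 75.2, 79.8 and 80.2 CPM in wild types. Both knockout libraries were lower, and the log2 fold change of -0.38 ± 0.13 (SE) missed the threshold (adjusted p = 0.0759). Sox30 had 44.1 and 61.2 CPM in Sox30 knockouts, against 77.2, 86.7 and 70.8 CPM in wild types (log2 -0.57 ± 0.12, adjusted p = 0.0252). Without the position of the lesion, reads from the rest of each gene cannot test the labels fully.

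Each effect, and the difference between them (Nkapl effect minus Sox30 effect), was tested in 1 edgeR quasi-likelihood fit over 17867 genes, and a gene was called at a Benjamini-Hochberg adjusted p under 0.05. The Nkapl knockout changed 3010 genes (16.8% of those tested), with 682 higher (3.82%) and 2328 lower (13%). The Sox30 knockout changed 803 genes (4.49%), with 179 higher (1%) and 624 lower (3.49%). The difference itself was called for 501 genes (2.8%). It was negative for 471 (2.64%), meaning lower in the Nkapl knockout relative to the Sox30 knockout, and positive for 30 (0.168%).

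Genes were then sorted by the 3 tests together. A gene changed in only the Nkapl knockout when it was called there, not called in the Sox30 knockout, and its difference was called, and 391 genes met this (369 lower and 22 higher). By the converse rule 75 genes changed in only the Sox30 knockout (5 lower and 70 higher). Both knockouts moved 485 genes in the same direction, of which 481 were lower and 4 higher. Another 26 genes moved in opposite directions, and all 26 were lower in the Nkapl knockout and higher in the Sox30 knockout. A further 2108 genes called in the Nkapl knockout and 217 called in the Sox30 knockout had a difference that missed the threshold, so whether they changed in only that knockout was not resolved.

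**Figure D1:**
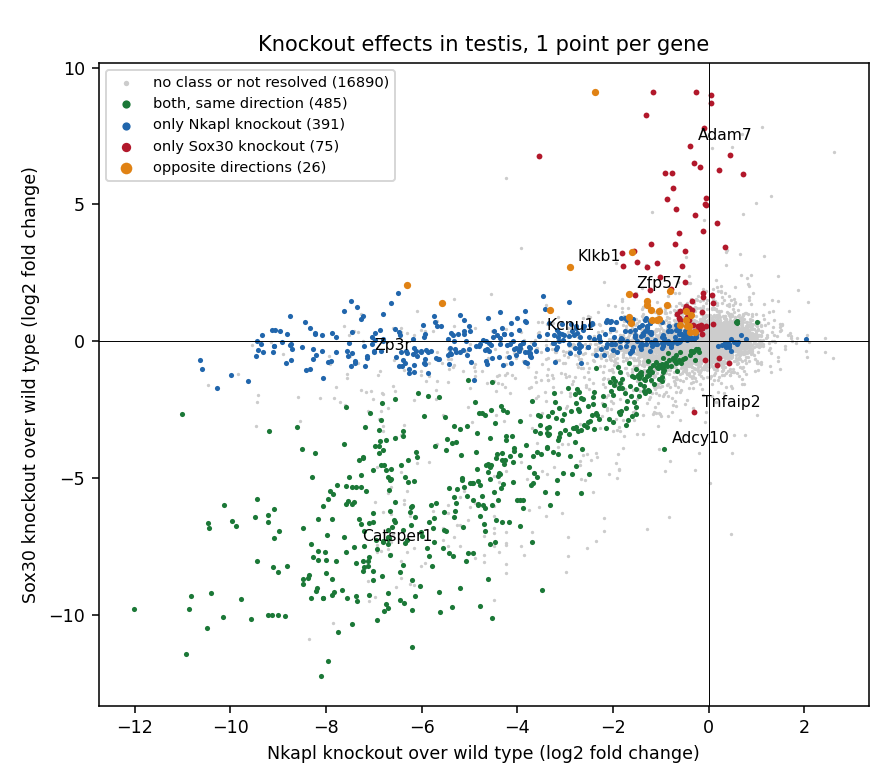
Each point is a gene, with the Nkapl knockout effect on the horizontal axis and the Sox30 knockout effect on the vertical axis, both as log2 fold change over wild type, coloured by class. The 485 shared genes lie mostly in the lower left, the 369 genes lower in only the Nkapl knockout run along the horizontal line, the 70 genes higher in only the Sox30 knockout rise near the vertical line, and the 26 opposite genes lie in the upper left.

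Promoters of 5 genes are shown to let a SOX core motif be seen in its context, since a SOX protein is the factor removed in one of the mutants. They were picked by hand from named genes, and each window shown holds the motif, whereas most windows of most classes hold none, so they do not represent their classes. Adcy10, the bicarbonate-responsive adenylyl cyclase of sperm, and Myh15, a myosin heavy chain gene, were lower in both knockouts. Tekt4, a tektin of the sperm tail, was lower in only the Nkapl knockout. Klkb1, the gene of plasma prekallikrein, and Zfp57, a zinc finger protein that guards imprinted DNA methylation in early embryos, moved in opposite directions. The windows run from 250 bases before to 50 after the annotated start, from RefSeq on GRCm38.p6, 5′ to 3′ on the gene's strand. They are Adcy10 at chr1:165484933-165485232 (plus strand), Myh15 at chr16:49057150-49057449 (plus), Tekt4 at chr17:25471340-25471639 (plus), Klkb1 at chr8:45294786-45295085 (minus) and Zfp57 at chr17:37003416-37003715 (plus). For Adcy10, Tekt4 and Zfp57 the window lies inside the annotated gene, whose span begins at 165483518, 25454549 and 37001163. Capitals mark ACAAT, the core that SOX domains are known to bind, or its reverse complement ATTGT, and each window holds 1 match.
Adcy10: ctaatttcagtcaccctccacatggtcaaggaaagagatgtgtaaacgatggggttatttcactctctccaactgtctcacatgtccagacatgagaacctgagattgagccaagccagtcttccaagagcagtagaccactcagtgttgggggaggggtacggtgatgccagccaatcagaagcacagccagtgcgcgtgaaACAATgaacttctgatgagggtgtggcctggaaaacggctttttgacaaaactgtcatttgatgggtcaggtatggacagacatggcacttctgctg
Myh15: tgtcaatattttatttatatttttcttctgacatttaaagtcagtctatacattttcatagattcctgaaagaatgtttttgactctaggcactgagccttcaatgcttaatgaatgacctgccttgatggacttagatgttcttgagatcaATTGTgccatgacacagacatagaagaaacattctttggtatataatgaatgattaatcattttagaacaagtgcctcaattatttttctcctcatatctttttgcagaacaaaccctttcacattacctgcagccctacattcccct
Tekt4: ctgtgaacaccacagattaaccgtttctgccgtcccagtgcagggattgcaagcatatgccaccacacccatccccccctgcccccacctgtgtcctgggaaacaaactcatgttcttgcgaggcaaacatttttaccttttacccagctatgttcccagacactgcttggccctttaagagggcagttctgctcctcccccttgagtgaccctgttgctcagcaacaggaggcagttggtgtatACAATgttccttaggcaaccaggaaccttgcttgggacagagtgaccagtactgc
Klkb1: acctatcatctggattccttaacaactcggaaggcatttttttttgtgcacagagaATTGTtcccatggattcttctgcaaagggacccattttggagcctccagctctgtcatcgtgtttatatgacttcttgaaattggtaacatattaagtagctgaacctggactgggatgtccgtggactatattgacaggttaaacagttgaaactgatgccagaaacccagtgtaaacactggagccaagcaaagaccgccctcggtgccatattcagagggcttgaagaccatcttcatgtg
Zfp57: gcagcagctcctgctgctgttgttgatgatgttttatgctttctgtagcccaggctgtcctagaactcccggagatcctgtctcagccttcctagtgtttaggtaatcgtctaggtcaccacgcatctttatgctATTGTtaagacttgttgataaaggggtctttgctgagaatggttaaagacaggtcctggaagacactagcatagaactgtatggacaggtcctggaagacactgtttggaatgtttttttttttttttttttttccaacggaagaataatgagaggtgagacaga

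Of the 17867 genes, 13578 had such a window. ACAAT on either strand was in 23% of all of them, so a single match is common. It was in 49.9% of the windows of 369 genes lower in both knockouts without a called difference, in 45.6% of 103 unresolved genes lower in the Sox30 knockout, and in 31.1% of 289 genes lower in only the Nkapl knockout. Among genes higher in only the Sox30 knockout it was in 22.2% of 54 windows, and among unresolved genes higher there in 36.8% of 57. Among opposite genes it was in 9 of 21 (42.9%). The longer ACAATG, which contains ACAAT, was in 8.76% of all windows. It was in 25.7% of those of genes lower in both knockouts, 29.1% of those of the unresolved Sox30-lower genes, 10% of those of genes lower in only the Nkapl knockout and 4.76% (1 of 21) of those of opposite genes. For genes higher in only the Sox30 knockout the share was 9.26%, and for the unresolved Sox30-higher genes 15.8%. AACAAT, which also contains ACAAT, was in 6.82% of all windows, 18.4% of those of genes lower in both and 6.92% of those of genes lower in only the Nkapl knockout. Unlike ACAATG, it was in 9.71% of windows of the unresolved Sox30-lower genes and 23.8% (5 of 21) of those of opposite genes. GTTGCC, part of the site that RFX factors of ciliated and germ cells bind, was in 13.2% of all windows, 18.4% of those of genes lower in both and 21.8% of those of genes lower in only the Nkapl knockout. TGACGTCA, the site of CREB-type factors, was in 2.86%, 4.07% and 2.77% of the same 3 sets. All motifs were searched on both strands, they were chosen with results of these data known, and no test was run on these shares.

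In the joint fit, most transcripts called lower without Sox30 were also called lower without Nkapl. Of the 624 genes lower in the Sox30 knockout, 481 (77.1%) were called lower in the Nkapl knockout too, against 13% of all genes. The 481 are 20.7% of the 2328 genes lower in the Nkapl knockout, against 3.49% of all genes called lower in the Sox30 knockout. No gene lower in the Sox30 knockout was called higher in the Nkapl knockout (0 of 624, against 3.82% of all genes), and 615 of the 624 had a negative Nkapl log2 fold change. Among the 481, 286 had a mean knockout level below 0.1 of the wild-type level in both sets. The 474 of them without a called difference had a median log2 fold change of -4.78 in the Nkapl knockout and -4.53 in the Sox30 knockout (-4.10 and -4.17 when genes with 0 counts take a bound of 3 counts). These values chose the class and describe it only. The class depends on the estimate of spread and on single libraries. With voom and a spread for each group the Sox30 knockout had 4 genes lower and 2 of the 485 shared genes stayed shared. The class held 264 genes without Nkapl knockout 1, 198 without Nkapl knockout 2, 317 without Sox30 knockout 1 and 865 without Sox30 knockout 2. A difference that misses the threshold does not show that the effects are equal, and the 95% interval of the difference lay within log2 -1 to 1 for 61 of the 485 shared genes (12.6%). These intervals are approximate for differences near 0, and so is that count.

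The shared falls named by rank include a sperm calcium channel gene. Genes named by rank had to have knockout and wild-type libraries apart in each set where they were called. Their separation, here and below, follows from that rule. Catsper1, the pore subunit of the CatSper channel that sperm need for hyperactivated swimming, had 0.147 and 0.0772 CPM in Nkapl knockouts, against 21.5, 16.3 and 19.7 CPM in wild types. In the Sox30 set it had 0.0527 and 0.166 CPM in knockouts, against 18.6, 30.7 and 12.2 CPM in wild types. All 4 knockout libraries were far below all 6 wild-type libraries, with log2 fold changes of -7.41 ± 0.62 (adjusted p = 0.000659) and -7.51 ± 0.56 (adjusted p = 0.000133). The difference was 0.10, with 5 and 8 counts in the knockout groups, and its interval ran from -3.03 to 3.23. This interval is approximate, because its SE is the difference divided by the root of F, which is unreliable near 0. The SE of the difference was 1.41, against 0.62 and 0.56 for the 2 effects. Zdhhc19, a palmitoyltransferase gene of the testis, had 0.0983 and 0.0772 CPM in Nkapl knockouts, against 9.08, 8.34 and 9.34 CPM in wild types, and 0.105 and 0.0554 CPM in Sox30 knockouts, against 9.13, 13.2 and 5.9 CPM in wild types. Mroh7 had 0.688 and 0.966 CPM in Nkapl knockouts, against 33.3, 24.4 and 29.6 CPM in wild types, and 0.606 and 0.887 CPM in Sox30 knockouts, against 26.7, 44.2 and 18.8 CPM in wild types. Knockout and wild-type libraries of both genes were apart in each set, with differences of 0.17 and 0.21 and intervals from -2.22 to 2.56 and from -1.25 to 1.68. Myh15, whose promoter is printed above, had 0.197 and 0.0386 CPM in Nkapl knockouts, against 12.7, 10.1 and 10.6 CPM in wild types, and 0.237 and 0.416 CPM in Sox30 knockouts, against 9.5, 15.6 and 7.09 CPM in wild types. It fell in both (log2 -6.63 ± 0.56 and -5.02 ± 0.44), and the interval of the difference of -1.60 ran from -3.65 to 0.45.

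The 4 genes higher in both knockouts, Fhod3, Alkbh3os1, Wfdc8 and Setbp1, moved by small amounts. They are 2.23% of the 179 genes higher in the Sox30 knockout, below the 3.82% of all genes called higher in the Nkapl knockout. Of the 682 genes higher in the Nkapl knockout they are 0.587%, below the 1% of all genes called higher in the Sox30 knockout. Fhod3, a formin that organises actin in muscle, had 5.6 and 5.29 CPM in Nkapl knockouts, against 3.74, 3.46 and 3.64 CPM in wild types, and 4.56 and 4.55 CPM in Sox30 knockouts, against 2.71, 2.85 and 3.05 CPM in wild types. Knockout and wild-type libraries did not overlap in either set, as the naming rule required. The log2 fold changes were 0.59 ± 0.14 (adjusted p = 0.0162) and 0.67 ± 0.13 (adjusted p = 0.0155). The other 3 rose by log2 0.56 to 1.0 in the Nkapl knockout and by 0.71 to 0.73 in the Sox30 knockout. Alkbh3os1 is an antisense transcript, and since the strand setting of the counting is not given, its reads cannot be told from those of the overlapping gene.

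Both knockouts lowered 7 genes by amounts whose difference was called. Adcy10 was the clearest, and it was lower in the Sox30 knockout by more. It had 81.4 and 79.1 CPM in Nkapl knockouts, against 154, 149 and 155 CPM in wild types, and 9.12 and 14.4 CPM in Sox30 knockouts, against 159, 235 and 144 CPM in wild types. All knockout libraries lay below all wild types, the Sox30 knockouts furthest, with log2 fold changes of -0.93 ± 0.21 (adjusted p = 0.0135) and -3.93 ± 0.24 (adjusted p = 3.64e-05). The difference was 3.0 ± 0.30 (adjusted p = 0.00133) and was called without each of the 10 libraries in turn. Ngfr, the p75 neurotrophin receptor gene, was lower in the Nkapl knockout by more. It had 2.26 and 2.43 CPM in Nkapl knockouts, against 11.5, 12.2 and 12.3 CPM in wild types, and 4.24 and 6.21 CPM in Sox30 knockouts, against 10, 13 and 8.06 CPM in wild types. Its difference of -1.36 ± 0.31 lay just inside the threshold (adjusted p = 0.0476) and missed it in 8 of 10 omissions of a library, with values from -1.63 to -1.05 over the 10. The other 5 are transcripts with Rik names. One of them, 4932415M13Rik, picked out after its values were seen, fell further in the Sox30 knockout like Adcy10, and the rest fell further in the Nkapl knockout.

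The 369 genes lower in only the Nkapl knockout had a median log2 fold change of -3.80 there (-3.55 when genes with 0 counts take their bound) and of 0.00 in the Sox30 knockout. Of them, 182 (49.3%) had a positive Sox30 fold change. In 131 (35.5%) each Sox30 knockout library lay within or above the range of the wild-type libraries. In the rest a Sox30 knockout library lay below all its wild types, so the class does not show that the Sox30 knockout had no effect. Zp3r, an acrosomal protein that binds the egg coat and is also known as sp56, had 0.197 and 0.116 CPM in Nkapl knockouts, against 23.8, 20.8 and 21.9 CPM in wild types. In the Sox30 set it had 8.35 and 33.1 CPM in knockouts, against 26, 45.8 and 18 CPM in wild types. The Nkapl groups were far apart. The Sox30 groups overlapped through Sox30 knockout 2, while Sox30 knockout 1 lay below all its wild types. The Nkapl fold change was -7.15 ± 0.97 (adjusted p = 0.00134), the Sox30 fold change -0.53 ± 0.48 (adjusted p = 0.791) and the difference -6.62 ± 1.14 (adjusted p = 0.0142). Kcnu1, the sperm potassium channel Slo3, had 2.56 and 2.05 CPM in Nkapl knockouts, against 29.8, 23.3 and 27.3 CPM in wild types, and 24.2 and 45.7 CPM in Sox30 knockouts, against 25.2, 44 and 22 CPM in wild types. The Sox30 libraries again overlapped, and the difference was -3.75 ± 0.50 (adjusted p = 0.00546).

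Izumo1, the sperm protein that binds the egg receptor Juno at fusion, followed the same pattern. It had 1.18 and 1.12 CPM in Nkapl knockouts, against 10.4, 8.96 and 8.8 CPM in wild types, and 13.1 and 16.7 CPM in Sox30 knockouts, against 11.1, 19.9 and 7.52 CPM in wild types (difference -3.25 ± 0.52, adjusted p = 0.0113). Pgk2, the glycolytic kinase that replaces its X-linked relative in meiosis, had 62.9 and 48.4 CPM in Nkapl knockouts, against 153, 134 and 150.5 CPM in wild types, and 221 and 339.7 CPM in Sox30 knockouts, against 175, 247 and 137 CPM in wild types (difference -1.98 ± 0.34, adjusted p = 0.0133). Aldoart1, a retrogene of aldolase, had 0.147 and 0.154 CPM in Nkapl knockouts, against 14.7, 10.9 and 11.7 CPM in wild types, and 4.93 and 18.8 CPM in Sox30 knockouts, against 14.5, 21 and 10.1 CPM in wild types. These 3 genes kept wild-type-range levels in at least 1 Sox30 knockout library. For Aldoart1, and for Theg, Tekt4 and Tssk4 below, Sox30 knockout 1 lay under all its wild types. Theg, a spermatid nuclear protein gene, had 1 count in the Nkapl knockouts, a ratio of wild type to knockout of 509 with a 95% counting interval from 91 to 20116, and it had 4.82 and 18.4 CPM in Sox30 knockouts, against 12.1, 18.7 and 6.27 CPM in wild types. Tekt4 had 26.8 and 20.1 CPM in Nkapl knockouts, against 87.8, 79 and 78.9 CPM in wild types, and 66.9 and 123 CPM in Sox30 knockouts, against 86.6, 108 and 74.2 CPM in wild types. Its difference was -1.89 ± 0.34 (adjusted p = 0.0163), between -2.29 and -1.38 over the 10 omissions of a library, and it was not called in 6 of them. Tssk4, a testis-specific kinase, was at 44 counts in all in the Nkapl knockouts and had a difference of -3.08 ± 0.68 (adjusted p = 0.0402) that was not called in 8 of the omissions (values from -3.66 to -2.13). It had 4.53 and 12.9 CPM in Sox30 knockouts, against 13.4, 21.2 and 9.66 CPM in wild types (log2 -0.76 ± 0.40). Without Nkapl knockout 1, and likewise without Nkapl knockout 2, the differences of Zp3r (-7.31 to -5.30 over the 10 omissions), Izumo1 (-3.72 to -2.98), Aldoart1 (-6.65 to -4.69), Theg (-11.28 to -7.37) and Pgk2 (-2.28 to -1.63) were not called, and Kcnu1 (-4.16 to -3.21) was not called without Nkapl knockout 2. Pgk2 was also not called without Nkapl wild type 3.

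The 4 genes of this class named for the smallest p of the difference were Prss56, Ftmt, Dscam and Ramp3. Prss56, a serine protease gene known from the eye, had 1.13 and 0.888 CPM in Nkapl knockouts, against 6.16, 8.92 and 7.14 CPM in wild types, and 12.6 and 18.7 CPM in Sox30 knockouts, against 9.77, 11.6 and 9.23 CPM in wild types. Ftmt, mitochondrial ferritin, had 0.786 and 0.772 CPM in Nkapl knockouts, against 17.2, 13.4 and 17.8 CPM in wild types, and 29 and 48.6 CPM in Sox30 knockouts, against 17.7, 25.8 and 11.9 CPM in wild types. In both genes the Sox30 knockouts lay above all their wild types, but the Sox30 fold changes of 0.62 ± 0.19 and 1.07 ± 0.28 missed the threshold (adjusted p = 0.135 and 0.0647). The differences were -3.50 ± 0.33 and -5.44 ± 0.53 (adjusted p = 0.00133 for each). Dscam, a neuronal adhesion gene, and Ramp3, a partner of calcitonin-family receptors, had Sox30 fold changes of 0.72 ± 0.19 and 0.73 ± 0.19 that also missed it (adjusted p = 0.0719 and 0.0699), and differences of -2.66 ± 0.30 and -2.77 ± 0.32. All 4 differences were called in every omission of 1 library.

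The 22 genes higher in only the Nkapl knockout moved less, with a median log2 fold change of 0.42. Lmln, a metallopeptidase gene, had 75 and 78.8 CPM in Nkapl knockouts, against 44.9, 45.7 and 45.1 CPM in wild types, and 42.9 and 40.1 CPM in Sox30 knockouts, against 39.9, 36.8 and 42.4 CPM in wild types. The Nkapl groups were apart, as the naming rule required, and the Sox30 groups overlapped (log2 0.77 ± 0.07 and 0.07 ± 0.07, difference 0.70 ± 0.10, adjusted p = 0.00826). Top3a, a topoisomerase that resolves recombination intermediates, had 134 and 130.2 CPM in Nkapl knockouts, against 80.8, 85.6 and 80.2 CPM in wild types, and 83.3 and 86.9 CPM in Sox30 knockouts, against 74.3, 72.9 and 74.2 CPM in wild types. Both effects were upward there, and the Sox30 effect of 0.21 ± 0.06 missed the threshold (adjusted p = 0.0752). Syvn1, an E3 ubiquitin ligase of the endoplasmic reticulum, and Tnrc6c, a scaffold of miRNA silencing, had differences of 0.58 ± 0.10 and 0.50 ± 0.10. Without Nkapl knockout 2 none of these 4 differences was called, and without Nkapl knockout 1 only Lmln was. The 4 were positive in all omissions, with Lmln from 0.65 to 0.74, Top3a from 0.43 to 0.51, Syvn1 from 0.46 to 0.69 and Tnrc6c from 0.39 to 0.61, and Syvn1, Tnrc6c and Top3a each also missed the threshold without at least 1 Nkapl wild-type library.

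The 26 opposite genes had a median log2 fold change of -1.13 in the Nkapl knockout and 1.12 in the Sox30 knockout, on either treatment of 0 counts. They are 14.5% of the 179 genes higher in the Sox30 knockout, near the 13% of all genes called lower in the Nkapl knockout. They are 1.12% of the 2328 genes lower in the Nkapl knockout, near the 1% of all genes called higher in the Sox30 knockout. Klkb1 had 0.393 and 0.27 CPM in Nkapl knockouts, against 2.56, 2.26 and 2.56 CPM in wild types, and 13.1 and 23 CPM in Sox30 knockouts, against 2.71, 3 and 2.59 CPM in wild types. The wild types of both sets were alike, the Nkapl knockouts lay below all of them and the Sox30 knockouts above all. The fold changes were -2.90 ± 0.36 (adjusted p = 0.000939) and 2.70 ± 0.22 (adjusted p = 0.000139), and the difference was -5.60 ± 0.41 (adjusted p = 0.000932). Zfp57 had 4.18 and 3.13 CPM in Nkapl knockouts, against 10.9, 12.2 and 11.4 CPM in wild types, and 33.6 and 46.2 CPM in Sox30 knockouts, against 12.4, 15 and 9.03 CPM in wild types (log2 -1.67 ± 0.24 and 1.72 ± 0.20). Svop, a transporter-like protein of synaptic vesicles, had 6.83 and 6.18 CPM in Nkapl knockouts, against 11.3, 12 and 10.6 CPM in wild types, and 33.2 and 43.4 CPM in Sox30 knockouts, against 11.5, 12.3 and 8.52 CPM in wild types (log2 -0.80 ± 0.18 and 1.83 ± 0.16). None of these groups overlapped, as the naming rule required. The differences of -3.38 ± 0.31 and -2.63 ± 0.24 had an adjusted p of 0.00133 each. Npy, the neuropeptide Y gene, stayed under 1 CPM in the Nkapl set (0.0983 and 0.0772 CPM in knockouts, against 0.593, 0.355 and 0.449 CPM in wild types). It had 2.11 and 2.52 CPM in Sox30 knockouts and 0 counts in their wild types, at least 84.4-fold higher. The differences of these 4 genes were called in each of the 10 omissions.

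Ccdc81, chosen here after its values were seen, had the widest opposite movement at a high level. It had 0.786 and 0.657 CPM in Nkapl knockouts, against 36.1, 31 and 35.1 CPM in wild types, and 65 and 119 CPM in Sox30 knockouts, against 31.7, 52.7 and 19.7 CPM in wild types (log2 -5.57 and 1.41). The class also holds the ion channel genes Cacna2d2, Grik2 and Tmc1, likewise named after their values were seen. Their fold changes were -1.03, -1.21 and -1.67 in the Nkapl knockout and 0.81, 1.15 and 0.87 in the Sox30 knockout.

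**Figure D2:**
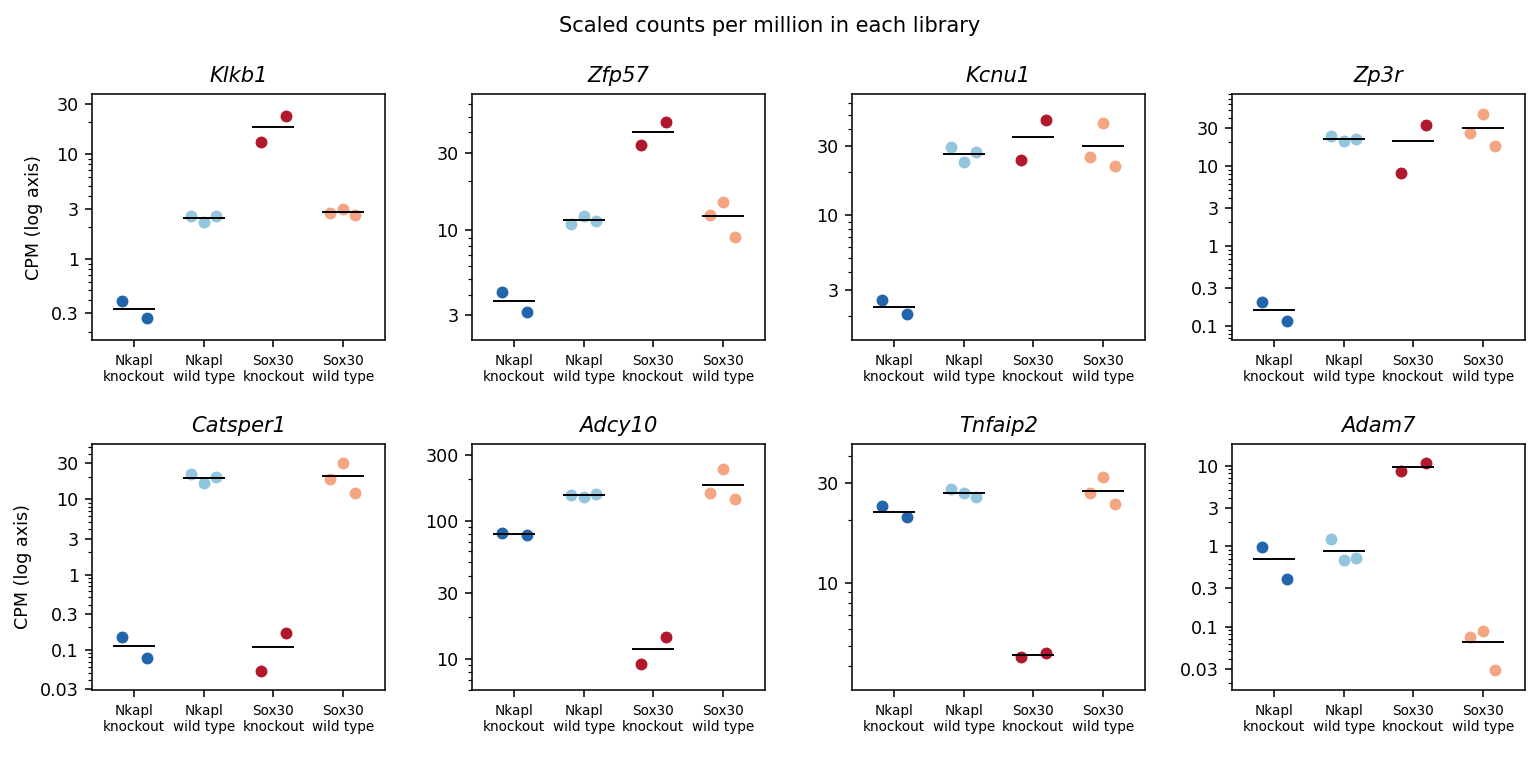
Scaled CPM of 8 genes in each library on log axes, with knockouts left of the wild types of their set and a line at the mean of 2 knockout or 3 wild-type libraries. Klkb1 and Zfp57 lie below wild type in Nkapl knockouts and above it in Sox30 knockouts, Kcnu1 and Zp3r fall in Nkapl knockouts with overlapping Sox30 groups, Catsper1 falls in both, Adcy10 falls further in Sox30 knockouts, and Tnfaip2 and Adam7 move in Sox30 knockouts.

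Of the 75 genes that changed in only the Sox30 knockout, 70 were higher and 5 lower. The 5 lower ones were Tnfaip2, Cdh2, Cacng5, Ankrd63 and Hdac11, the last named after its values were seen. Tnfaip2, a gene induced by tumour necrosis factor in other cells, had 23.1 and 20.5 CPM in Nkapl knockouts, against 27.9, 26.8 and 25.5 CPM in wild types, and 4.43 and 4.63 CPM in Sox30 knockouts, against 26.7, 32 and 23.6 CPM in wild types. The Sox30 knockouts were far below all other libraries (log2 -2.60 ± 0.14, adjusted p = 3.3e-05), the Nkapl effect missed the threshold (-0.30 ± 0.12, adjusted p = 0.126), and the difference was 2.30 ± 0.18 (adjusted p = 0.00107). Cdh2, the N-cadherin gene of germ cell and Sertoli cell junctions, had 125 and 125 CPM in Nkapl knockouts, against 128, 133 and 136 CPM in wild types, and 75.9 and 80.5 CPM in Sox30 knockouts, against 124, 133 and 124 CPM in wild types. Its difference was 0.62 ± 0.09 (adjusted p = 0.00678), from 0.56 to 0.67 over the 10 omissions, and it was not called without Nkapl knockout 2. Cacng5, Ankrd63 and Hdac11 had Sox30 fold changes of -0.61, -0.88 and -0.79 and differences of 0.83, 1.05 and 1.20. Cacng5 was not called in 4 of the omissions (values from 0.75 to 0.89) and Ankrd63 not in 6 (0.82 to 1.31).

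The higher genes were led by genes known from the epididymis. Adam7, a membrane protein of epididymal epithelium, had 0.983 and 0.386 CPM in Nkapl knockouts, against 1.23, 0.666 and 0.718 CPM in wild types, and 8.64 and 10.7 CPM in Sox30 knockouts, against 0.074, 0.089 and 0.0285 CPM in wild types. The Nkapl-set libraries overlapped and all lay above the Sox30-set wild types. The difference was -7.54 ± 0.63 (adjusted p = 0.00126). Serpina1f had 7.35 and 11.4 CPM in Sox30 knockouts and 2 counts in their wild types, a ratio of 509 with a 95% counting interval from 140.3 to 4210.2, and 1.08 and 0.502 CPM in Nkapl knockouts, against 1.19, 0.444 and 0.628 CPM in wild types. Serpina16 and Ces5a, a serpin and a carboxylesterase gene, had differences of -6.92 ± 0.68 and -6.07 ± 0.61 (adjusted p = 0.00133 for each). All 4 differences were called in each omission of 1 library. Of 22 epididymal markers listed, 10 had enough counts to be tested, and a marker near 0 elsewhere could pass only through the libraries where it is high. The counts are therefore a description and support nothing: in the Sox30 knockout 7 of the 10 were called higher (1% of all genes) and 0 lower, in the Nkapl knockout 0 higher and 1 lower, and the difference was called for 6, all negative. Over all 22 markers, tested or not, the summed unscaled CPM was 64.6 to 98.2 in Sox30 knockouts, against 8.4 to 16.2 in wild types, and 8.58 to 16 in Nkapl knockouts, against 10.7 to 17.1 in wild types. For the 10 tested the summed scaled level was 61 and 98.3 CPM in Sox30 knockouts, against 10.6, 16.2 and 7.69 CPM in wild types, and 15.3 and 7.88 CPM in Nkapl knockouts, against 17, 10.7 and 13.8 CPM in wild types. Over all 22, Lcn6, Lcn10 and Spag11b were at 0 in both Sox30 knockouts, and Lcn5, Lcn6, Lcn9, Lcn10, Pate4 and Ovch2 in all 3 of their wild types. How much epididymal tissue each testis sample held was not tested.

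**Figure D3:**
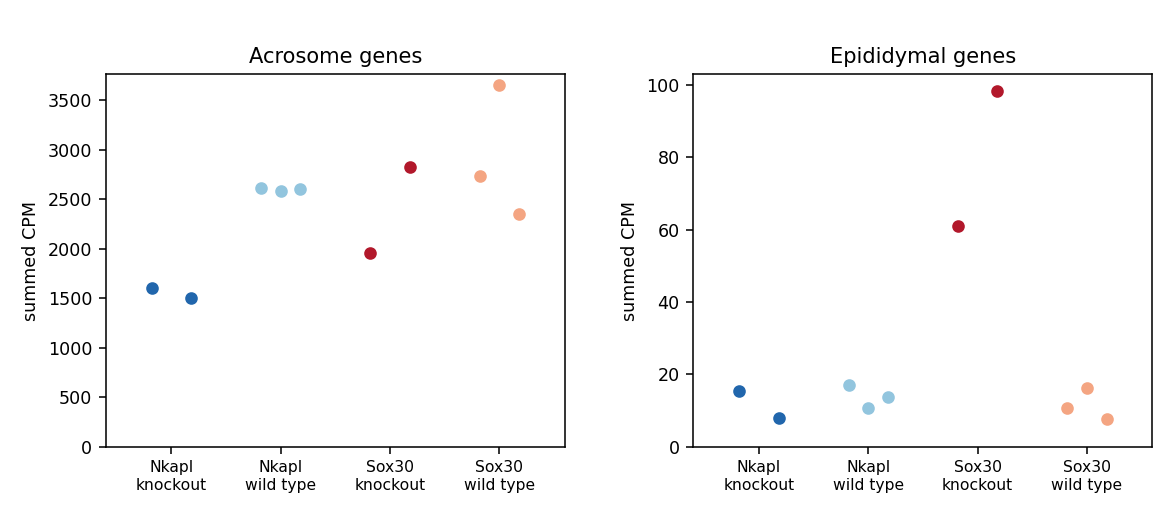
Summed scaled CPM of 34 acrosome genes and of 10 tested epididymal genes in each library, knockouts left of the wild types of their set, on axes from 0. Acrosome sums are 1605 and 1507 in Nkapl knockouts, below their wild types, and overlap in the Sox30 set, and epididymal sums are 61 and 98.3 in Sox30 knockouts, above the other libraries.

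Lists of genes by role show how the 2 effects spread over sperm biology. Over all 17867 genes the median log2 fold change was 0.02 in the Nkapl knockout and -0.00 in the Sox30 knockout. Of all genes, 13% were called lower and 3.82% higher in the Nkapl knockout, and 3.49% lower and 1% higher in the Sox30 knockout, and each count below is to be read against these shares. Of 34 acrosome genes, 28 fell in the Nkapl knockout and 18 in the Sox30 knockout, with medians of -3.09 and -1.24, and the difference was called negative for 3. By class, 16 were lower in both, 3 in only the Nkapl knockout, 9 were unresolved Nkapl genes and 2 unresolved Sox30 genes. Summed acrosome levels were 1605 and 1507 CPM in Nkapl knockouts, against 2612, 2578 and 2605 CPM in wild types, and 1952 and 2829 CPM in Sox30 knockouts, against 2731, 3651 and 2348 CPM in wild types. The Nkapl groups did not overlap and the Sox30 groups did. Of 36 sperm tail genes, 24 fell in the Nkapl knockout and 6 in the Sox30 knockout (medians -0.60 and -0.14), and the difference was called for 1, Tekt4. Of 20 ion transport genes, 14 and 7 fell (medians -0.67 and -0.19), with differences called negative for 2 and positive for 1, Adcy10. Of 18 glycolysis genes, 11 and 2 fell (medians -0.71 and -0.09), with 2 differences called, Aldoart1 and Pgk2. Of 18 testis kinases and phosphatases, 7 and 4 fell (medians -0.38 and -0.10). Tssk5 is among those lower in both, at 0.393 and 0.888 CPM in Nkapl knockouts, against 4.02, 3.55 and 3.68 CPM in wild types, and 0.237 and 0.222 CPM in Sox30 knockouts, against 6.76, 10.5 and 3.08 CPM in wild types.

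Of 17 tested chromatin genes of spermatids, 4 fell in the Nkapl knockout and 5 in the Sox30 knockout. The median was -3.80 in the Nkapl knockout, or -0.89 when genes with 0 counts take their bound, and -2.61 in the Sox30 knockout on either scale. Their summed levels, led by a few abundant meiotic members, overlapped in the Sox30 set at 2264 and 2104 CPM in knockouts, against 2324, 2186 and 2142 CPM in wild types. Cdyl, a chromodomain protein that acts in the histone exchange of spermatids, had 36.3 and 39.7 CPM in Nkapl knockouts, against 32, 33.5 and 33.4 CPM in wild types, and 35 and 29.9 CPM in Sox30 knockouts, against 40.5, 45.8 and 36 CPM in wild types. The knockouts lay on opposite sides of their wild types, but neither effect nor the difference of 0.53 ± 0.15 was called (adjusted p = 0.104). Of 21 spermatid transcription regulators, 7 and 4 fell (medians -0.30 and -0.08) and no difference was called (0 of 21). Zmynd15, a repressor of late spermatid genes, had 36 and 32.8 CPM in Nkapl knockouts, against 100.4, 96.1 and 95.4 CPM in wild types, and 49 and 93.5 CPM in Sox30 knockouts, against 81.6, 109 and 69.4 CPM in wild types (difference -1.22 ± 0.34, adjusted p = 0.101).

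Of 35 meiotic prophase genes, 4 fell in the Nkapl knockout and 1 in the Sox30 knockout (medians 0.08 and 0.05). Syce1, a central element protein of the synaptonemal complex, was lower in only the Nkapl knockout, at 144 and 145 CPM in Nkapl knockouts, against 231, 224 and 215 CPM in wild types, with 222 and 275 CPM in Sox30 knockouts, against 237, 269 and 217 CPM in wild types (difference -0.67 ± 0.15, adjusted p = 0.0402). Of 22 meiotic division genes, 8 fell in the Nkapl knockout and 0 in the Sox30 knockout (medians -0.17 and -0.01). Cenpe, the kinetochore motor, had 140.2 and 139 CPM in Nkapl knockouts, against 223, 217 and 222 CPM in wild types, and 192 and 212 CPM in Sox30 knockouts, against 194, 231 and 205 CPM in wild types (difference -0.61 ± 0.11, adjusted p = 0.0192). The calls of Syce1 and Cenpe were lost in 8 and 7 of the 10 omissions (values from -0.83 to -0.50 and from -0.70 to -0.53). Of 20 piRNA pathway genes, 3 rose and 1 fell in the Nkapl knockout and 0 changed in the Sox30 knockout.

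Calls among somatic and spermatogonial markers were nearly all in the Nkapl set. More genes of any kind were called there, with 3.82% of all genes higher in the Nkapl knockout and 1% in the Sox30 knockout. Of 22 Sertoli cell markers, 7 rose in the Nkapl knockout and 0 in the Sox30 knockout (medians 0.27 and -0.00), and no difference was called. Their summed level was 3267 and 3411 CPM in Nkapl knockouts, against 2743 to 2849.8 CPM in wild types, and 3169 and 2613 CPM in Sox30 knockouts, against 2506 to 2982 CPM in wild types. Sox9, the Sertoli fate factor, had 83 and 88.6 CPM in Nkapl knockouts, against 66, 62.8 and 62.8 CPM in wild types, and 52.7 and 48.7 CPM in Sox30 knockouts, against 54, 44.8 and 55.3 CPM in wild types (difference 0.44 ± 0.13, adjusted p = 0.108). Markers of undifferentiated spermatogonia rose in 3 and fell in 1 of 14 cases in the Nkapl knockout, and 1 rose in the Sox30 knockout. That 1 was Cdh1, an adhesion gene of many epithelia too, at 4.48 and 6.04 CPM in Sox30 knockouts, against 2.22, 1.48 and 2.31 CPM in wild types. Of 11 markers of differentiating spermatogonia 2 rose in the Nkapl knockout, of 12 Leydig markers 1, of 10 peritubular myoid markers 1 and of 12 macrophage markers 0, and none of these was called in the Sox30 knockout. The part of changed cell proportions in the gene classes was not tested.

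**Figure D4:**
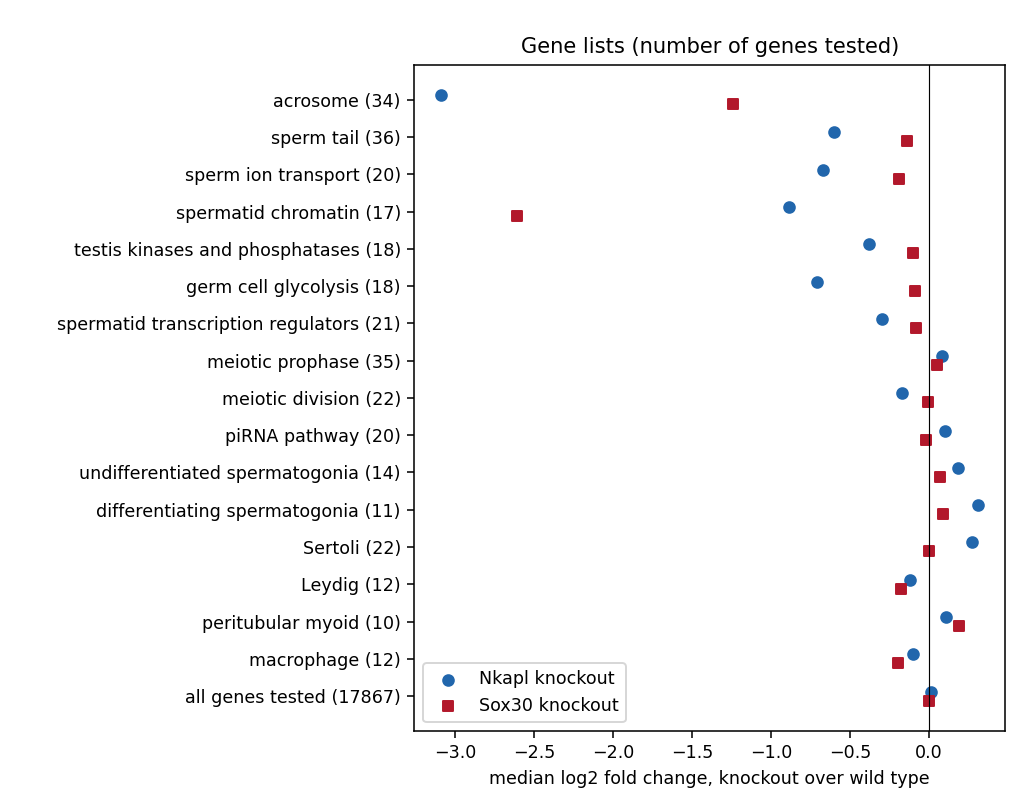
Median log2 fold change of 16 gene lists and of all genes tested in the Nkapl knockout (circles) and the Sox30 knockout (squares), using the bound for genes with 0 counts, and the number of genes tested in brackets. Acrosome genes have the lowest Nkapl median at -3.09. Spermatid chromatin genes have the lowest Sox30 median at -2.61, with 5 of 17 called lower there, and somatic lists lie near 0.

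Sorted cells place the classes along germ cell development. A gene was called spermatid-enriched when wild-type round spermatids exceeded wild-type spermatocytes by a log2 above 1 at adjusted p under 0.05, which held for 18.2% of the tested genes measured there. It held for 93.6% of the genes lower in both knockouts without a called difference, 82.4% of the unresolved genes lower in the Sox30 knockout and 71% of those lower in only the Nkapl knockout. It held for 36% of the opposite genes (9 of 25) and 22% of those higher in only the Sox30 knockout. Of the 22 genes higher in only the Nkapl knockout, 11 (50%) were spermatocyte-enriched by the converse rule, against 18.7% of all genes. In sorted spermatids, libraries that the classes did not use, the Nkapl knockout lowered 30.3% and raised 29.4% of these genes. It lowered 68.1% of the genes lower in both, 55.9% of those lower in only the Nkapl knockout and 68% of the opposite genes, with medians of log2 -0.41, -0.26 and -0.33 that are smaller in size than in whole testis. It raised 14.7%, 27.1% and 16% of these 3 classes, the second close to the share of all genes. Of the genes higher in only the Nkapl knockout it raised 72.7%. X-linked genes made up 4.24% of all genes with a chromosome, 8.26% of those lower in both and 6.63% of those lower in only the Nkapl knockout. The Nkapl level was 24.6 and 23.6 CPM in knockout spermatids, against 88.4 and 90.3 CPM in wild-type spermatids. In spermatocytes it was 127 and 125 CPM in libraries labelled knockout, against 90.1 and 86 CPM in those labelled wild type, which goes against these labels, and the spermatid enrichment rests on the spermatocyte labels being right.

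**Figure D5:**
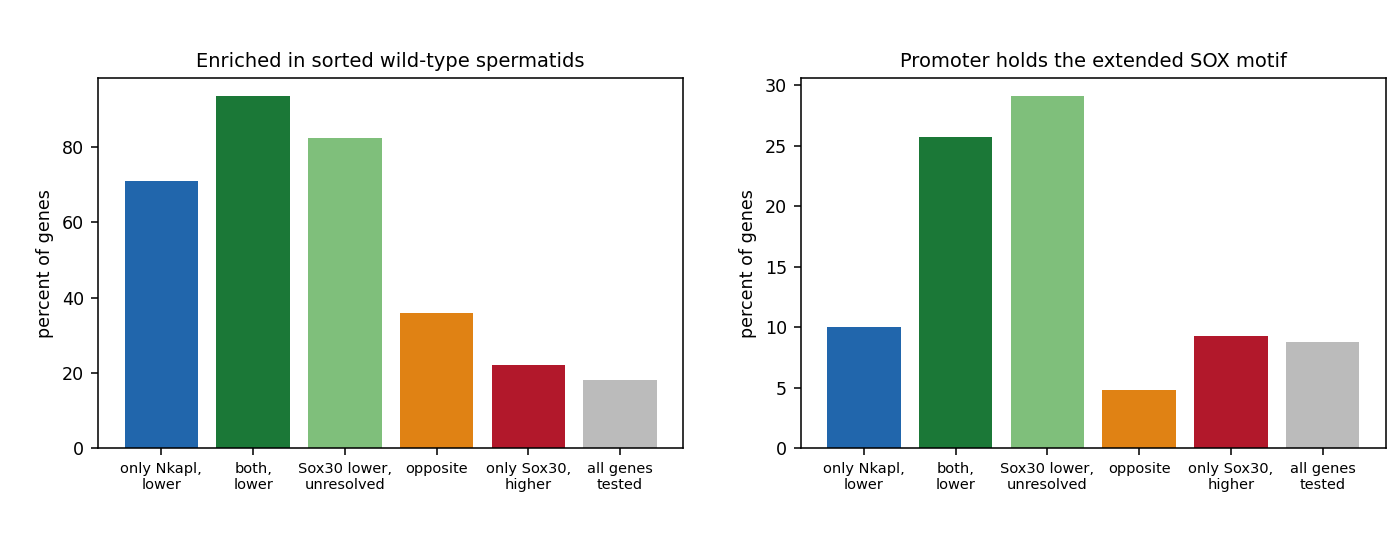
Bars give the percent of genes in each class that are enriched in sorted wild-type round spermatids over spermatocytes (left) and whose promoter window holds ACAATG on either strand (right), on axes from 0. The shares for genes lower in both knockouts are 93.6% and 25.7%, against 18.2% and 8.76% over all genes tested.

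Rxra, a retinoid receptor gene, and Fbxo44, a ubiquitin ligase subunit gene, had a called difference (0.70 ± 0.16 and -0.80 ± 0.18, adjusted p = 0.0413 and 0.0402) with neither effect called. Rxra had 31.3 and 32 CPM in Nkapl knockouts, against 27.3, 21.9 and 26 CPM in wild types, and 21.4 and 18.9 CPM in Sox30 knockouts, against 28, 25.8 and 24.1 CPM in wild types. Both calls were lost in at least 7 of the 10 omissions, with values from 0.60 to 0.78 for Rxra and from -0.97 to -0.63 for Fbxo44.

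Most changed genes could not be placed. The unresolved genes of the Nkapl knockout were 1452 lower and 656 higher, and just outside the threshold of the difference lay Ly9 (adjusted p = 0.0501) and Slc39a10 (0.0506), just inside it Ngfr (0.0476) and Hdac11 (0.0476). Slc39a10, a zinc transporter gene, had 75.3 and 75.1 CPM in Nkapl knockouts, against 117, 125 and 117 CPM in wild types, and 108 and 136 CPM in Sox30 knockouts, against 107, 138 and 109.5 CPM in wild types. Its Nkapl groups were apart, as the naming rule required, and its Sox30 groups overlapped. Izumo3, an acrosome membrane gene with 2 counts in Nkapl knockouts, had a ratio of wild type to knockout of 133 (95% counting interval 36.5 to 1099.6) and 1.45 and 4.41 CPM in Sox30 knockouts, against 5.72, 11.7 and 3.42 CPM in wild types. Among the higher ones, Polr2a, the large subunit of RNA polymerase II, had 650.0 and 696 CPM in Nkapl knockouts, against 534, 578 and 546 CPM in wild types, and 393 and 437 CPM in Sox30 knockouts, against 473, 439 and 476 CPM in wild types (difference 0.44 ± 0.11, adjusted p = 0.0548). The unresolved genes of the Sox30 knockout were 138 lower and 79 higher. Bdh1, a ketone body enzyme, had 2.08 and 2 CPM in Sox30 knockouts, against 5.48, 4.69 and 4.79 CPM in wild types, and 3.83 and 4.44 CPM in Nkapl knockouts, against 5.57, 4.97 and 5.79 CPM in wild types (difference 0.90 ± 0.21, adjusted p = 0.0548). Atp2b3, a plasma membrane calcium pump, rose to 9.49 and 11.8 CPM in Sox30 knockouts, against 6.81, 7.18 and 7.72 CPM in wild types, and had 8.36 and 7.42 CPM in Nkapl knockouts, against 9.95, 8.56 and 10.5 CPM in wild types. Cdc45 and Hmmr, genes of the cell cycle, had Sox30 fold changes of 0.24 ± 0.05 and 0.33 ± 0.07 and differences of -0.33 and -0.41 that missed the threshold.

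The counts depend on which libraries and which estimate of spread are used. Without Nkapl wild type 3 and Sox30 wild type 3, the libraries whose record and heading disagree, the difference was called for 4 genes higher and 141 lower. Of the main classes, 94 of 391 genes stayed in only Nkapl, 28 of 75 in only Sox30, 440 of 485 in both and 12 of 26 in opposite, and 21 of the 34 named genes with a called difference kept it. With libraries grouped by file record edgeR called 0 genes in any test, with 376, 722 and 1278 genes at an unadjusted p under 0.05 for the difference, the Nkapl effect and the Sox30 effect. With a spread of its own for each group (limma voom with group weights) the Sox30 knockout had 41 genes higher and 4 lower, and the shared class 4 genes, of which 2 were among the 485. With each set fitted alone 322 of the 485 shared genes stayed. The only-Nkapl class held 11 genes without Nkapl knockout 2, 45 without Nkapl knockout 1, 133 to 164 without an Nkapl wild type, 1733 without Sox30 knockout 1, 193 without Sox30 knockout 2, 159 without Sox30 wild type 1 and 1046 without Sox30 wild type 2.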

How the data were processed

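Gene counts of whole testis and sorted germ cells were deposited by the authors as whole-number counts per gene symbol, not normalized. TRIzol extraction and a TruSeq stranded total RNA kit were used, per the labels' protocols. The submitters' processing notes name HISAT2 2.1.0, HTSeq, DESeq2 and mm10, with no role stated. Which annotation and strand mode the counting used is not given in the sources used here.

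Columns were assigned to samples by their headings, identical columns were used once, and summary lines that name no gene (18.8% to 24.6% of all entries summed in the sorted files) were left out. No column lacked a sample. Genes passing filterByExpr by group (17867 of 24682) entered edgeR 4.0.16 (R 4.3.3) with TMM scaling and the quasi-likelihood F test over the 4 groups, and p-values were adjusted by Benjamini-Hochberg over all genes tested. The SE is the log2 fold change divided by the root of F, and CPM are scaled by TMM. Such an SE, and the interval built on it, is unreliable where the fold change or difference is near 0. The script was tested on simulated data. The named genes are Nkapl, Sox30, the 4 of each class and direction with the smallest p among genes at 2 CPM or more in a group with non-overlapping libraries, and up to 2 per list. Members, lists and motifs were chosen with earlier results of these data known. Symbols were matched to RefSeq GRCm38.p6, giving a chromosome for 17434 genes and a promoter window for 13578, with the first listed start where there were several. Floors use 3 counts, and intervals of ratios of counts cover counting error only. Same-numbered knockout and wild-type libraries deviated together with correlations of 0.0232 and -0.000156 in the Nkapl set and 0.0595 and 0.368 in the Sox30 set, so numbers were not taken as pairs. Alternatives were DESeq2 1.42.0, limma 3.58.1 voom with weights per group, RLE scaling, no filter, thinned counts, a size threshold, a replicate block, each set alone, grouping by record, and leaving out libraries.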

Additional observations from a re-analysis of the deposited data

Results flagged for a closer look

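The Nkapl and Sox30 effects differed by the test of the difference itself in 471 genes with a negative and 30 with a positive value. Among named genes higher in only the Sox30 knockout, the difference (log2) was -7.54 for Adam7, -6.07 for Ces5a, -6.92 for Serpina16 and -8.66 for Serpina1f. The last rests on 2 counts in the Sox30 wild types. For genes in opposite directions it was -5.60 for Klkb1, -3.38 for Zfp57, -2.63 for Svop and -11.47 for Npy, whose Sox30 wild types had 0 counts, so that its size depends on the prior count.

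For genes lower in only the Nkapl knockout the difference was -5.96 for Aldoart1, -0.61 for Cenpe, -2.66 for Dscam, -5.44 for Ftmt, -3.25 for Izumo1 and -3.75 for Kcnu1. It was -1.98 for Pgk2, -3.50 for Prss56, -2.77 for Ramp3, -0.67 for Syce1, -1.89 for Tekt4, -8.64 for Theg, -3.08 for Tssk4 and -6.62 for Zp3r. For genes higher in only the Nkapl knockout it was 0.70 for Lmln, 0.58 for Syvn1, 0.50 for Tnrc6c and 0.48 for Top3a. For genes lower in only the Sox30 knockout it was 2.30 for Tnfaip2, 0.62 for Cdh2, 0.83 for Cacng5 and 1.05 for Ankrd63. Adcy10 (3.0) and Ngfr (-1.36) fell in both by unequal amounts, and Rxra (0.70) and Fbxo44 (-0.80) had neither effect called. Of these 34 genes, 14 kept the call in each of the 10 omissions of a library, 21 kept it without the 2 libraries whose record and heading disagree, and none kept it when libraries were grouped by record.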

How the results depend on the processing

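No named gene with a called difference changed the sign of that difference under the alternatives run. Among those without a call, Catsper1 (-0.52 to 1.08), Mroh7 (-0.20 to 0.52), Zdhhc19 (-0.19 to 0.66), Setbp1 (-0.38 to 0.02) and Wfdc8 (-0.29 to 0.03) changed sign over the 10 omissions of a library, and Cabyr (0.07) and Myh15 (0.63) when grouped by file record. The difference was called for 87 genes higher and 796 lower with DESeq2, 18 higher with voom, 4 and 141 without the disagreeing libraries, and 6 higher with a log2 size of at least 1. The Nkapl effect had 3325 genes higher and 4314 lower with voom, 3013 and 4420 with each set alone, 173 higher without the disagreeing libraries, and 19 and 1309 by size. The Sox30 effect had 41 genes higher and 4 lower with voom, so that more were higher than lower, the opposite of 179 and 624. It had 89 and 342 with each set alone, and 112 higher by size. The class of only Nkapl held 719 genes with DESeq2 and 98 without the disagreeing libraries, and that of only Sox30 held 22 with voom, 31 without those libraries and 43 with each set alone. The shared class held 4 with voom, and the opposite class 12 without the disagreeing libraries and 11 by size. Grouped by file record, all these counts were 0 by edgeR. With replicate numbers as a block, although the check did not pair them, the difference was called for 82 higher and 900 lower, the Nkapl effect for 1055 higher and the Sox30 effect for 305 and 1328, and the classes held 611 (only Nkapl), 1084 (both) and 49 (opposite). Over the 10 omissions of a library the Nkapl effect had 30 to 1354 higher and 506 to 3138 lower, the Sox30 effect 98 to 240 higher and 345 to 1002 lower, and the difference 2 to 250 higher and 40 to 1822 lower. The classes held 11 to 1733 (only Nkapl), 22 to 123 (only Sox30), 198 to 865 (both) and 9 to 74 (opposite). The cause of these shifts was not tested. RLE scaling, no filter and thinning to the smallest total kept each of these counts within 1.5 times. Genes near 0 counts have wide intervals, as given for Catsper1, whose interval of the difference is approximate.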
